A study of Mus musculus with 12 samples.

Results

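The SR and hnRNP splicing factors were taken as all rows of the deposited gene-level table whose symbol begins, in any case, with Sfrs, Srsf, Hnrp or Hnrnp. The table held 44 such entries among 30854, 18 with an Sfrs name and 26 with an hnRNP name. After the update of symbols they stood for 37 genes. Detection required, in 1 or more of the groups, a detection p under 0.01 on every one of its 3 arrays. Of the 44 entries 27 were detected, for 24 genes, and 17 were not. Of the 27 entries 23 entered the test of 9920 genes, and the other 4 read a gene for which a brighter entry was tested. All but 1 of the 23 tested members were detected on all 12 arrays, and Hnrnpdl missed detection on 1 wild-type array. Among the tested members 7 were classical SR proteins, 4 were SR-related proteins and 12 were hnRNP proteins.

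Total RNA of mouse stem cells was hybridised to Illumina Mouse WG6 BeadChips, 1 array per sample and 3 arrays per group. The groups were lin28a loss of function, lin28b loss of function, loss of function of both genes (called double loss here) and wild type. The cells are embryonic stem cells by their labels, but the design text describes the wild-type controls as iPS, and all cells were cultured with serum and mLif. Each genotype has 1 line name in the sample titles and nothing says that the 3 samples of a group were separate cultures, so p-values measure only the spread between these samples, which may be technical, and line and genotype cannot be told apart. By the chip identifiers in the files, chip 1 carried Lin28a loss and wild type, and chip 2 carried double loss and Lin28b loss. Where a comparison crosses chips, genotype and chip cannot be told apart.

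SR proteins carry arginine and serine-rich tails and RNA-binding domains, bind exonic enhancers, and help the spliceosome recognise exons. hnRNP proteins coat nascent transcripts and often act against exon inclusion, so that the balance of both families shapes alternative splicing. Many SR and hnRNP genes control their own level through exons that direct the transcript to nonsense-mediated decay. LIN28A and LIN28B block the maturation of let-7 microRNAs and also bind many mRNAs. In human cells LIN28 was reported to bind mRNAs of splicing factors and to change the levels of HNRNPF, TIA1 and TARDBP, among others.

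Lin28a itself fell in both lines that carry its loss of function. Its normalized log2 signals were 5.69, 5.71 and 5.57 in Lin28a loss, 6.84, 7.05 and 7.19 in Lin28b loss, 5.29, 5.55 and 5.60 in double loss, against 8.07, 7.97 and 7.86 in wild type. The change was -2.31 ± 0.11 (log2 fold change ± SE, here and below) on chip 1 (limma, adjusted p = 1.38e-08). It was -1.55 ± 0.11 on chip 2, in double loss against Lin28b loss (adjusted p = 6.35e-07). Lin28a was also lower in Lin28b loss than in wild type, with a change of -0.94 ± 0.11 across chips. The fall on chip 2 was smaller than that on chip 1, by 0.76 ± 0.16 (limma, adjusted p = 0.00253). Lin28a still passed detection on all 3 arrays of Lin28a loss and of double loss, so its RNA was reduced and not absent. The entries of Lin28b passed detection on no array, so its loss could not be checked. Mean raw signal ran from 325.4 to 596.7 per array, and 9377 to 10773 entries were above background. All 8 pluripotency markers were above background (detection p under 0.01) on every array. None of the 8 feeder fibroblast markers passed detection on any array, though their summed signal, given further on, was highest in Lin28a loss. The brightest arrays of Lin28a loss (replicate 3), double loss (replicate 1) and wild type (replicate 1) deviated from their group means together, with correlations across genes of 0.460 to 0.687.

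Srsf3, Srsf6, Srsf5 and Srsf2 had the largest interactions and the largest differences between double loss and Lin28a loss among the 7 tested classical SR genes. Those of Srsf7, read by entries outside the tested members, were of similar size and are given further on. The 250 bases before their annotated starts are printed because all 4 were higher in double loss than in Lin28a loss and passed the interaction test. The sequences are those of RefSeq on GRCm38.p6, written 5′ to 3′ on the strand of the gene. Capitals mark the short motifs searched on both strands, which are the CRE core TGACG, the NF-Y box CCAAT, the GC box GGGCGG, the ETS core CCGGAAG, the YY1 core ATGGCG, the NRF1 core GCATGCG and the E-box CACGTG. Motifs that overlap appear as 1 run of capitals.
Srsf3: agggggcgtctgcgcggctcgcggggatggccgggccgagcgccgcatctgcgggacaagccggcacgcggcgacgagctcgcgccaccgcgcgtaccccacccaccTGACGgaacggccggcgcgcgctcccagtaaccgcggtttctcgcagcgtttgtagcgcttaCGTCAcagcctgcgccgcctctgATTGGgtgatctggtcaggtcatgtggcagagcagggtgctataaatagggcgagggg
Srsf6: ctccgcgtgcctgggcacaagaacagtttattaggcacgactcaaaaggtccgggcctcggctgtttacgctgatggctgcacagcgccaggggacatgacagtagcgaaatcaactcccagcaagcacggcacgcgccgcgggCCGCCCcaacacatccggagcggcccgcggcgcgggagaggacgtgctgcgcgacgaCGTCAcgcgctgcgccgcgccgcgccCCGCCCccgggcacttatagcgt
Srsf5: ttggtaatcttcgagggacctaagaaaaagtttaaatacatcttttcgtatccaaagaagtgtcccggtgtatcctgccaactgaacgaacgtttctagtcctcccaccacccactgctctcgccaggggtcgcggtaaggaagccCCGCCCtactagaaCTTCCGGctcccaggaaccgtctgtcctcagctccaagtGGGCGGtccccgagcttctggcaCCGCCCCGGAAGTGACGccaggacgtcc
Srsf2: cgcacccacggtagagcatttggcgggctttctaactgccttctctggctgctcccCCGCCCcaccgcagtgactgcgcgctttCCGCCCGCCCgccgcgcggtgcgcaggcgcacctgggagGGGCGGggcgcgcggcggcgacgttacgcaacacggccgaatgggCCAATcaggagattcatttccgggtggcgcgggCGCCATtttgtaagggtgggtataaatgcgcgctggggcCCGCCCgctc
The windows lie at chr17:29032410-29032659 on the plus strand, chr2:162931258-162931507 on the plus strand, chr12:80945249-80945498 on the plus strand and chr11:116853095-116853344 on the minus strand. The GC box was in the window of Srsf6, Srsf5 and Srsf2, and the CRE core in that of Srsf3, Srsf6 and Srsf5. The NF-Y box was in the window of Srsf3 and Srsf2, the ETS core in that of Srsf5 and the YY1 core in that of Srsf2. Of the 24 detected member genes 23 had a promoter in the table. Of these 23, 17 held the GC box, 12 the CRE core, 10 the NF-Y box and 5 the ETS core. All genes here means 27025 genes with 1 promoter each, whether or not detected in these cells. Their shares were 33.0% for the GC box, 17.8% for the CRE core, 34.5% for the NF-Y box and 7.07% for the ETS core. The YY1 core was in 2, the NRF1 core in 2 and the E-box in 1 of the 23 windows, against 5.78%, 3.06% and 6.04% of all genes. A match here is only a description of the letters.

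Lin28a loss against wild type, both on chip 1, asks what the loss of function of Lin28a does where Lin28b is not disrupted. Srsf3, Srsf6, Srsf5, Hnrnph1, Hnrnpa0 and Akap17b fell, and Sugp2 rose. At an adjusted p under 0.05, 7 of 23 tested members were called, beside 36.7% of all genes. The calls of the members were 6 falls and 1 rise, where 18.4% of all genes were called lower and 18.3% higher. The median change was -0.18 over the members and -0.03 over all genes. Of the 7 classical SR genes 3 fell and 6 lay below 0, with a median of -0.35. Of the 12 hnRNP genes 2 fell and 10 lay below 0, with a median of -0.16.

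Srsf3, the smallest SR protein, had normalized log2 signals of 8.21, 8.43 and 9.18 in Lin28a loss, against 9.38, 9.55 and 9.52 in wild type. All 3 arrays of Lin28a loss were below all 3 of wild type, and replicate 3, the brightest array of its group, was the nearest to wild type. Srsf3 fell by 0.88 ± 0.20 (adjusted p = 0.00387). Srsf6, an SR protein that binds exonic enhancers, had 9.47, 9.48 and 9.98 in Lin28a loss, against 10.59, 10.32 and 10.47 in wild type. These groups did not overlap either, and replicate 3 of Lin28a loss was again the nearest to wild type. The change of Srsf6 was -0.81 ± 0.14 (adjusted p = 0.000583). Srsf5, a close relative of Srsf6, had 11.21, 11.61 and 11.59 in Lin28a loss, against 12.07, 12.23 and 11.95 in wild type. Here too no array of Lin28a loss reached wild type, and the change was -0.62 ± 0.12 (adjusted p = 0.0013). Srsf2, which takes part in exon definition, had 11.57, 11.95 and 12.23 in Lin28a loss, against 12.35, 12.26 and 12.21 in wild type. The groups of Srsf2 overlapped through replicate 3 of Lin28a loss, and its change of -0.35 ± 0.13 did not pass the test (adjusted p = 0.0542).

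**Figure D1:**
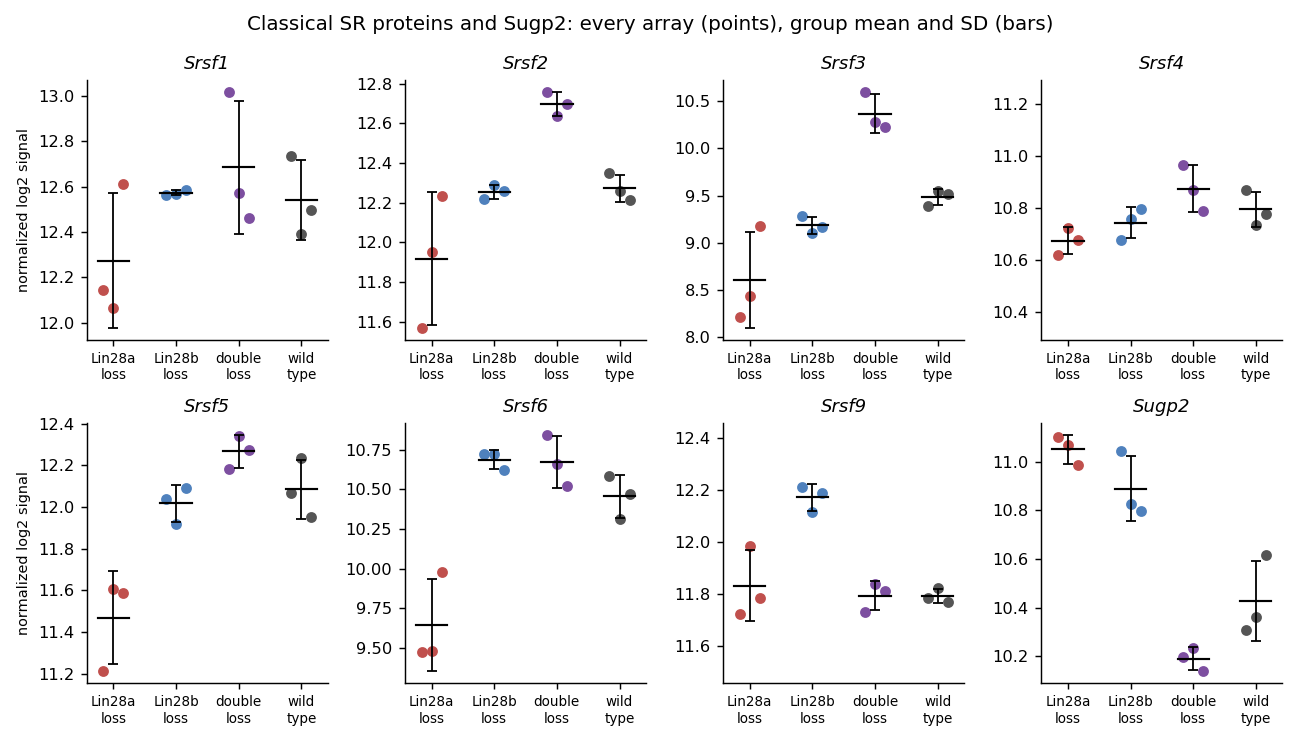
Normalized log2 signal (vertical axis) of the 7 tested classical SR genes and Sugp2 in Lin28a loss, Lin28b loss, double loss and wild type. Points are single arrays, long bars the mean and whiskers the SD of 3 arrays. Srsf3 is lowest in Lin28a loss (8.21 to 9.18) and highest in double loss (10.23 to 10.60), and each panel has its own scale.

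Among the hnRNP genes, Hnrnph1, which binds runs of G, had 9.84, 10.07 and 10.0015 in Lin28a loss, against 10.74, 10.45 and 10.52 in wild type. Every array of Lin28a loss was below every array of wild type, and Hnrnph1 fell by 0.60 ± 0.10 (adjusted p = 0.000548). Hnrnpa0, of the A/B family, had 10.18, 10.13 and 10.07 in Lin28a loss, against 10.36, 10.76 and 10.59 in wild type. The groups did not overlap, although the arrays of wild type spread more widely, and the change was -0.44 ± 0.13 (adjusted p = 0.0195). Among the SR-related genes, Sugp2 (Sfrs14 in the files), a protein with SURP and G-patch domains, had 11.10, 11.07 and 10.98 in Lin28a loss, against 10.31, 10.36 and 10.62 in wild type. All 3 arrays of Lin28a loss were higher, and Sugp2 rose by 0.62 ± 0.10 (adjusted p = 0.000435). Akap17b (Sfrs17b in the files) had 8.07, 7.91 and 8.31 in Lin28a loss, against 8.23, 8.56 and 8.66 in wild type. These groups overlapped, and the change was -0.39 ± 0.13 (adjusted p = 0.0352).

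Srsf5 was the only one of these 7 calls that remained when arrays were scaled by their medians in place of quantile normalization. The calls of Hnrnpa0 and Akap17b also ended without replicate 2 or 3 of wild type, and that of Akap17b without replicate 1 or 2 of Lin28a loss, under cyclic loess, with no filter and in a fit of only the arrays compared. Without the brightest arrays of Lin28a loss, double loss and wild type, 10 of the 23 members were called, 5 of them falls among the 7 classical SR genes, beside 49.7% of all genes. Marker levels of other kinds differed between the same groups. The summed signal of the 8 pluripotency markers was 15.43 to 15.52 (log2 range over arrays) in Lin28a loss, 15.50 to 15.53 in Lin28b loss, 15.61 to 15.75 in double loss and 15.57 to 15.64 in wild type. Of 6 trophoblast markers 3 (Krt7, Krt8 and Krt18) were above background on every array of Lin28a loss and of wild type. In the other groups 2 (Krt8 and Krt18) were so on every array. Ascl2 and Elf5 passed detection on no array. The summed signal of the 6 trophoblast markers was 9.95 to 10.13 in Lin28a loss and 10.05 to 10.13 in Lin28b loss. It was 9.51 to 9.67 in double loss and 10.66 to 10.88 in wild type. That of 6 primitive endoderm markers was 11.11 to 11.36 in Lin28a loss and 11.29 to 11.33 in Lin28b loss. It was 10.83 to 11.10 in double loss and 10.58 to 10.89 in wild type. Lama1 and Sparc were above background on every array, and Gata4 and Sox17 passed detection on none. The summed signal of 4 mesoderm markers was 6.75 to 6.87 in Lin28a loss and 7.08 to 7.43 in Lin28b loss. It was 6.81 to 6.90 in double loss and 7.29 to 7.51 in wild type. Eomes was above background on every array of wild type and of Lin28b loss, and T on every array of wild type only. Mesp1 and Mixl1 passed detection on no array. Of 4 neural markers Nes alone was above background on every array, and the other 3 passed detection on none. The sum of the 4 was 7.32 to 7.38 in Lin28a loss and 7.57 to 7.71 in Lin28b loss. It was 7.30 to 7.49 in double loss and 7.08 to 7.26 in wild type. The feeder fibroblast sum was 8.67 to 8.87 in Lin28a loss, 7.88 to 7.97 in Lin28b loss, 8.10 to 8.16 in double loss and 8.05 to 8.11 in wild type. The part of any of these lists in the results on splicing factors was not tested. In such bulk RNA, fewer cells of a type and less RNA per cell cannot be told apart.

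Lin28b loss against wild type, across the chips, asks what the loss of function of Lin28b does where Lin28a is not disrupted. Sugp2, Srsf9 and Hnrnpm rose and Hnrnpf fell. These 4 of 23 members stand beside 36.1% of all genes called, 18.9% higher and 17.2% lower. The median change was -0.03 over the members and 0.00 over all genes. Of the classical SR genes 1 rose, none of the 7 fell and 4 lay below 0. Of the 12 hnRNP genes 1 rose, 1 fell and 8 lay below 0. The arrays of Lin28b loss lay close to each other, and Srsf3 ran from 9.11 to 9.28 there.

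Sugp2 had 11.04, 10.83 and 10.80 in Lin28b loss, against 10.31, 10.36 and 10.62 in wild type. Every array of Lin28b loss was above every array of wild type, and Sugp2 rose by 0.46 ± 0.10 (adjusted p = 0.00363). Srsf9, an SR protein related to Srsf1, had 12.21, 12.11 and 12.19 in Lin28b loss, against 11.79, 11.82 and 11.77 in wild type. The 2 groups were apart by more than either spread, and Srsf9 rose by 0.38 ± 0.09 (adjusted p = 0.00456). Hnrnpm, which takes part in splice site choice, had 12.86, 12.77 and 12.83 in Lin28b loss, against 12.59, 12.40 and 12.58 in wild type. The groups did not overlap and the change was 0.30 ± 0.11 (adjusted p = 0.0451). Hnrnpf, a G-run binding relative of Hnrnph1, had 10.70, 10.89 and 10.97 in Lin28b loss, against 11.29, 11.16 and 11.01 in wild type. Its groups did not overlap, though the highest array of Lin28b loss lay close to the lowest of wild type, and the change was -0.30 ± 0.10 (adjusted p = 0.0338).

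None of these 4 calls remained under median scaling, which moved the median of all genes by -0.23 in this comparison. There Hnrnpm turned, with -0.01 (adjusted p = 0.972), all 12 hnRNP genes lay below 0, and so did 6 of the 7 classical SR genes. The 1 member called there was Hnrnpa0, which was lower. With quantile normalization 1877 genes were called higher and 1709 lower, and with median scaling 380 higher and 1424 lower. The call of Hnrnpf ended without replicate 1 or 2 of either group, without the brightest arrays of the other 3 groups and in a fit of only the arrays compared, and that of Hnrnpm without any 1 array of either group, without replicate 2 of Lin28a loss and without replicate 2 or 3 of double loss, under cyclic loess and with no filter. Leaving out replicate 2 of wild type, or replicate 1 or 2 of Lin28b loss, left 2 members called, with no share of all genes given. Without the brightest arrays of the other 3 groups 7 were called, beside 48.3% of all genes.

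Double loss against wild type, also across the chips, asks what the loss of function of both paralogs does. Srsf3 and Srsf2 rose, and no member fell. These 2 of 23 members stand beside 37.1% of all genes called, 18% higher and 19.1% lower. Array weights gave 8 calls, beside 58.1% of all genes. All 7 classical SR genes lay above 0 with quantile normalization, with a median of 0.18 and Srsf9 at 0.00, and 6 of 7 did with median scaling and with cyclic loess. The median change of the 12 hnRNP genes was 0.01, none was called, and 7 lay above 0, where median scaling turned the median to -0.08 and left 4 above 0. Over all genes the median was -0.01.

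Srsf3 had 10.60, 10.28 and 10.23 in double loss, against 9.38, 9.55 and 9.52 in wild type. Each array of double loss was above each array of wild type, and Srsf3 rose by 0.89 ± 0.20 (adjusted p = 0.00353). Srsf2 had 12.76, 12.63 and 12.70 in double loss, against 12.35, 12.26 and 12.21 in wild type. These arrays were also apart, and Srsf2 rose by 0.43 ± 0.13 (adjusted p = 0.0239). Both calls ended under median scaling, which moved the median of all genes by -0.14 here (adjusted p = 0.130 for Srsf3 and 0.348 for Srsf2). The call of Srsf2 also ended with no filter, and without replicate 2 or 3 of wild type or replicate 1 or 3 of double loss. Each of these left-out arrays left 1 member called, with no share of all genes given. With quantile normalization 1781 of all genes were called higher and 1895 lower, against 444 higher and 1282 lower with median scaling.

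**Figure D2:**
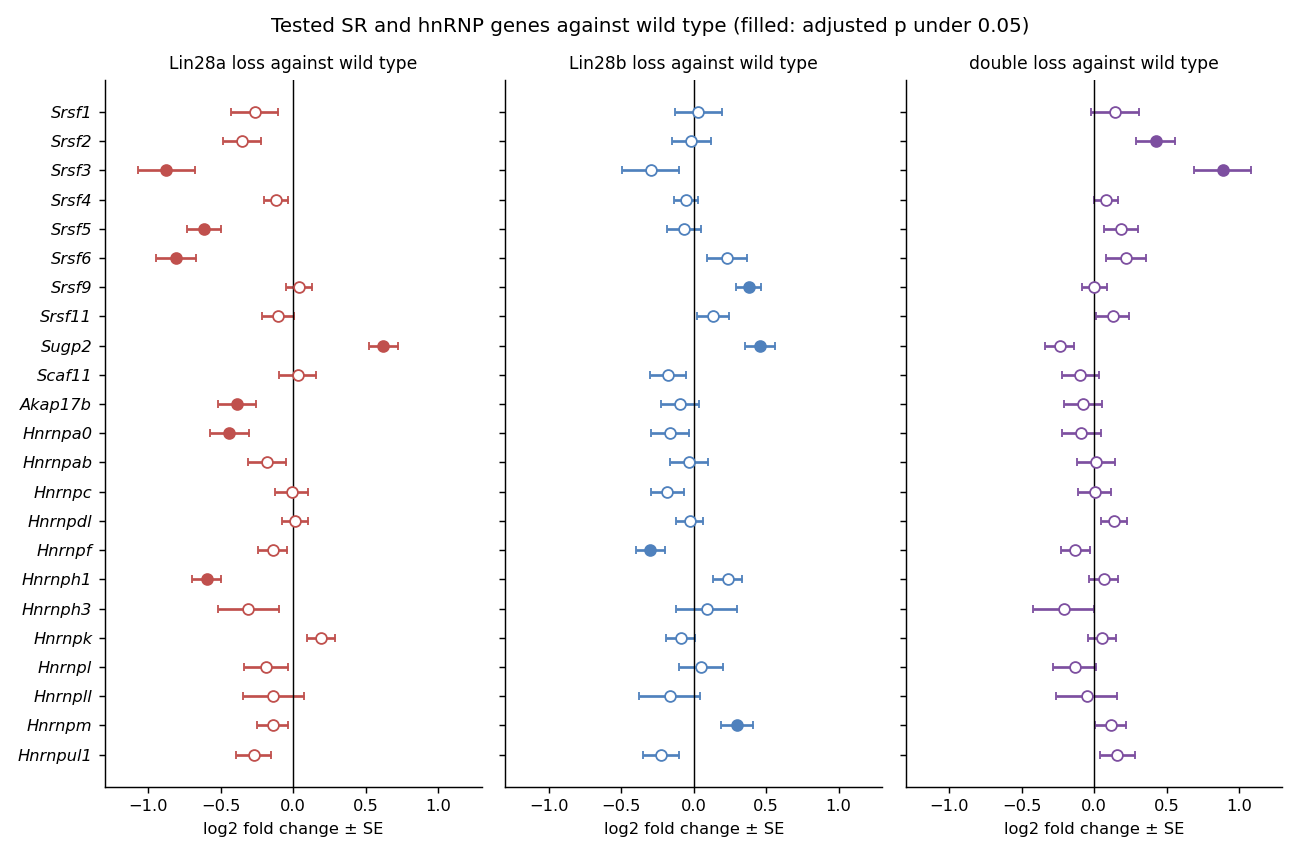
Log2 fold change ± SE (horizontal axis) of the 23 tested members in Lin28a loss, Lin28b loss and double loss, each against wild type. Filled points passed an adjusted p under 0.05 in limma's fit. Falls prevail among the filled points of Lin28a loss (6 of 7), while both filled points of double loss are rises, and the 3 panels share the wild-type arrays.

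Double loss against Lin28a loss, across the chips, asks what the loss of function of Lin28b adds to that of Lin28a. Of 23 members 8 were higher in double loss and 1 was lower, where 54% of all genes were called, 26.4% higher and 27.5% lower. Srsf3, Srsf6, Srsf5, Srsf2, Srsf1, Hnrnph1, Hnrnpul1 and Hnrnpa0 were higher and Sugp2 was lower in double loss than in Lin28a loss. The median change was 0.20 over the members, 0.78 over the 7 classical SR genes, 0.11 over the 12 hnRNP genes and 0.00 over all genes. Srsf3 differed by 1.76 ± 0.20 (adjusted p = 9.94e-06), its arrays running from 10.23 to 10.60 in double loss and from 8.21 to 9.18 in Lin28a loss. Srsf6 differed by 1.03 ± 0.14 (adjusted p = 4.68e-05), Srsf5 by 0.80 ± 0.12 (adjusted p = 9.86e-05) and Srsf2 by 0.78 ± 0.13 (adjusted p = 0.000323). In none of these 4 genes did an array of double loss overlap Lin28a loss. Sugp2 differed by -0.86 ± 0.10 (adjusted p = 1.63e-05), with 10.20, 10.24 and 10.14 in double loss, against 11.10, 11.07 and 10.98 in Lin28a loss.

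Among the hnRNP genes, Hnrnph1 had 10.71, 10.57 and 10.62 in double loss, against 9.84, 10.07 and 10.0015 in Lin28a loss. All 3 arrays of double loss were higher, by 0.66 ± 0.10 (adjusted p = 0.000131). Hnrnpul1, a relative of the nuclear matrix protein hnRNP U, had 5.86, 5.57 and 5.60 in double loss, against 5.33, 5.29 and 5.10 in Lin28a loss. It was among the dimmest members, its groups did not overlap, and the change was 0.43 ± 0.12 (adjusted p = 0.00947). Hnrnpa0 differed by 0.35 ± 0.13 (adjusted p = 0.0384) and Srsf1, a founding SR protein, by 0.41 ± 0.16 (adjusted p = 0.0496). In Srsf1 the groups overlapped, with 13.02, 12.57 and 12.46 in double loss, against 12.14, 12.07 and 12.61 in Lin28a loss, and its highest array in each group was the brightest array of that group. Under median scaling, which moved the median of all genes by -0.15, the calls of Srsf3, Srsf6, Srsf5, Srsf2 and Sugp2 remained and those of Hnrnph1, Hnrnpul1, Hnrnpa0 and Srsf1 ended. The call of Hnrnpa0 also ended without any 1 array of Lin28a loss and without replicate 2 or 3 of double loss, and that of Srsf1 without replicate 1 or 2 of Lin28a loss or of double loss. Both calls ended with no filter and in a fit of only the arrays compared, that of Srsf1 also under cyclic loess and with detection required on all 12 arrays, and that of Hnrnpul1 without the brightest arrays of 3 groups. In the shared fit the calls of Hnrnpa0 and Srsf1 ended as well without replicate 3 of wild type or replicate 1 or 2 of Lin28b loss, and that of Srsf1 also without replicate 2 of wild type or replicate 3 of Lin28b loss. Of all genes 2623 were called higher and 2732 lower with quantile normalization, against 811 higher and 2400 lower with median scaling.

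Double loss against Lin28b loss, both on chip 2, asks what the loss of function of Lin28a adds to that of Lin28b. Srsf3, Srsf2 and Hnrnpul1 rose and Sugp2 and Srsf9 fell. These 5 of 23 members stand beside 36.6% of all genes, 16.9% higher and 19.7% lower. The median change was 0.08 over the members and -0.01 over all genes. Srsf3 had 10.60, 10.28 and 10.23 in double loss, against 9.28, 9.11 and 9.17 in Lin28b loss. The groups lay far apart relative to their spread, and Srsf3 rose by 1.18 ± 0.20 (adjusted p = 0.000516). Srsf2 rose by 0.44 ± 0.13 (adjusted p = 0.0207), with 12.76, 12.63 and 12.70 in double loss, against 12.22, 12.29 and 12.26 in Lin28b loss. Sugp2 fell by 0.70 ± 0.10 (adjusted p = 0.000187), with 10.20, 10.24 and 10.14 in double loss, against 11.04, 10.83 and 10.80 in Lin28b loss. In both genes the arrays of double loss were closer to each other than to any array of Lin28b loss.

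Srsf9 fell by 0.38 ± 0.09 (adjusted p = 0.00461), with 11.73, 11.84 and 11.81 in double loss, against 12.21, 12.11 and 12.19 in Lin28b loss. Hnrnpul1 rose by 0.38 ± 0.12 (adjusted p = 0.0263), with 5.86, 5.57 and 5.60 in double loss, against 5.12, 5.44 and 5.32 in Lin28b loss. Neither pair of groups overlapped. Srsf6 and Srsf5, which fell with Lin28a loss on chip 1, were at -0.01 ± 0.14 and 0.25 ± 0.12 here, and neither passed the test. Under median scaling Srsf3 was the 1 member still called, beside 12.2% of all genes. The calls of Srsf2 and Hnrnpul1 ended without replicate 1 or 3 of Lin28b loss or replicate 1 of double loss, that of Srsf2 also without replicate 3 of double loss, and that of Hnrnpul1 with no background correction and with no filter. Leaving out replicate 1 or 3 of Lin28b loss left 3 members called, with no share of all genes given. Without the 3 brightest arrays 8 were called, beside 49.1% of all genes.

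The Lin28a-loss effect on chip 1 and that on chip 2 share no arrays, and their difference (the interaction of both losses) was tested in the same fit. An additive difference between the chips cancels in it, but a difference between the lines does not. Among the members 9 of 23 passed, 7 with a more positive and 2 with a more negative effect where Lin28b was lost too, against 37.8% of all genes, 17.5% upward and 20.3% downward. Srsf3 had the greatest interaction of the members, 2.06 ± 0.28 (adjusted p = 0.000108), and ranked 145 of 9920 genes by size. The change of Srsf3 with Lin28a loss was 1.18 ± 0.20 between the lines with Lin28b loss and -0.88 ± 0.20 between the lines without it. Sugp2 ran the other way, with -0.70 ± 0.10 on chip 2, 0.62 ± 0.10 on chip 1 and an interaction of -1.32 ± 0.14 (adjusted p = 1.98e-05). In Srsf3 and Sugp2 both effects passed the test with opposite signs.

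Srsf5 had an interaction of 0.87 ± 0.17 (adjusted p = 0.00137), Srsf6 of 0.80 ± 0.20 (adjusted p = 0.00641) and Srsf2 of 0.80 ± 0.19 (adjusted p = 0.00533). In Srsf5 and Srsf6 only the fall on chip 1 passed the test, and in Srsf2 only the rise on chip 2 did. Hnrnpul1 had 0.66 ± 0.17 (adjusted p = 0.0095), Hnrnpa0 0.52 ± 0.19 (adjusted p = 0.0445) and Hnrnph1 0.43 ± 0.14 (adjusted p = 0.0311). Srsf9 had -0.42 ± 0.12 (adjusted p = 0.0176). The median interaction was 0.80 over the 7 classical SR genes, of which 4 passed upward and 1 downward, 0.21 over the 12 hnRNP genes and 0.00 over all genes. With median scaling 5 members passed, which were Srsf3, Srsf5, Srsf2, Sugp2 and Hnrnpa0, beside 14.8% of all genes. The average effect of Lin28a loss over both chips, fitted with the chip as a block, was called for 1 of 23 members, against 22.1% of all genes, 10.6% higher and 11.5% lower. That member was Hnrnph1, at -0.38 ± 0.10 (adjusted p = 0.0145), with a change of -0.60 ± 0.10 on chip 1 and -0.17 ± 0.10 on chip 2. The interaction call of Hnrnph1 ended without replicate 1 of Lin28a loss, replicate 1 or 2 of Lin28b loss, replicate 1 or 3 of double loss, replicate 1 of wild type or the brightest arrays of 3 groups, and the dimmer entry of Hnrnph1 did not pass (0.39 ± 0.22, adjusted p = 0.185). That of Hnrnpa0 ended with no filter and without any 1 array of Lin28a loss, replicate 1 or 2 of Lin28b loss, replicate 2 or 3 of double loss or replicate 2 or 3 of wild type. The averaged call of Hnrnph1 ended under median scaling. A further member passed without replicate 2 of Lin28a loss or without replicate 1 of double loss, with no share of all genes given. Without the 3 brightest arrays 3 members passed in the average, beside 20.1% of all genes.

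**Figure D3:**
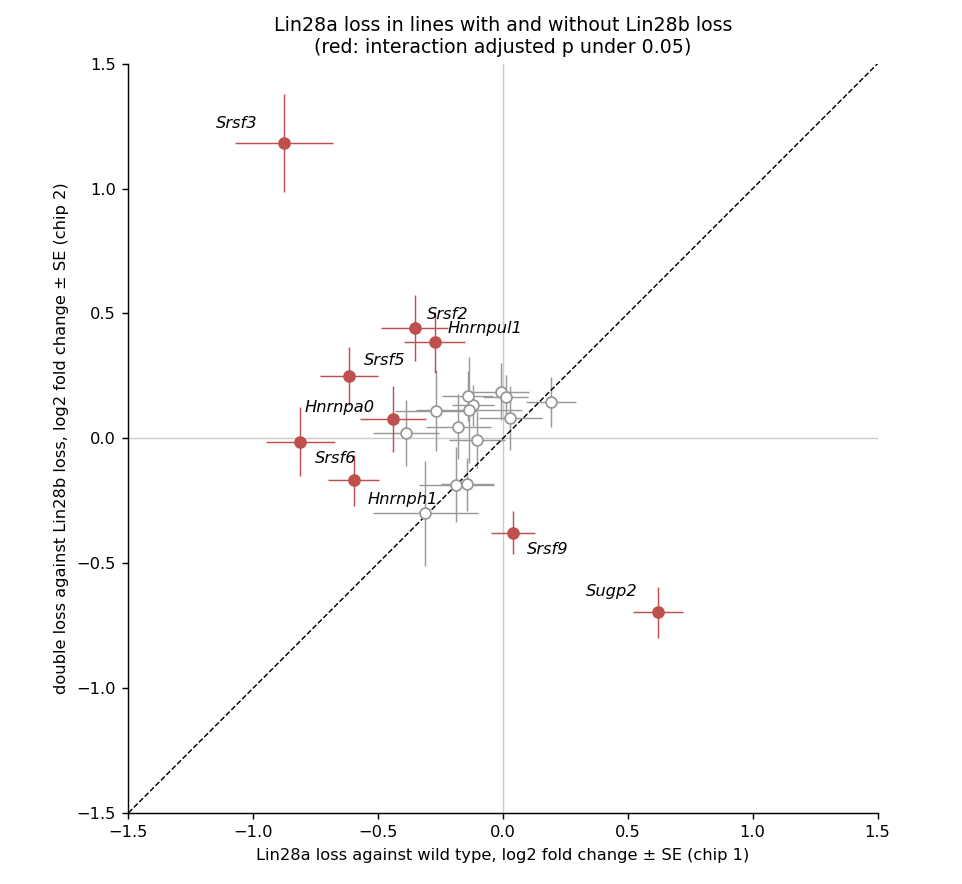
Effect of Lin28a loss on each of the 23 members where Lin28b was lost too (vertical axis, double loss against Lin28b loss, chip 2) and where it was not (horizontal axis, Lin28a loss against wild type, chip 1), as log2 fold change ± SE. The dashed line marks equal effects and red points passed the interaction test. Srsf3 lies far above the line and Sugp2 far below it, while Hnrnph1 is below 0 on both axes.

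The other tested hnRNP entries were called in no comparison, although dimmer entries of Hnrnpab and Hnrnpc were, as given further on. Hnrnpc, which binds U tracts and is the brightest member by normalized signal, ran from 14.04 to 14.44 over all 12 arrays, and Hnrnpab from 13.31 to 13.87. Their highest arrays were replicate 1 of wild type for Hnrnpc and replicate 1 of double loss for Hnrnpab. Hnrnpk, which binds C-rich RNA, ran from 7.63 to 8.08, and Hnrnph3 from 6.26 to 7.17, with an SD of 0.45 in Lin28a loss. Hnrnpl, which binds CA repeats, and its relative Hnrnpll had changes between -0.19 and 0.11 in the 5 comparisons of 2 groups. In Hnrnpll the brightest arrays stood highest, at 9.36 in Lin28a loss, 9.48 in double loss and 9.55 in wild type. Hnrnpdl ran from 10.33 to 10.65. Of the other SR and SR-related members, Srsf4 had changes between -0.12 and 0.20, Srsf11 between -0.10 and 0.23 and Scaf11 between -0.18 and 0.08, and none passed the test. A change that does not pass the test is not shown to be absent.

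**Figure D4:**
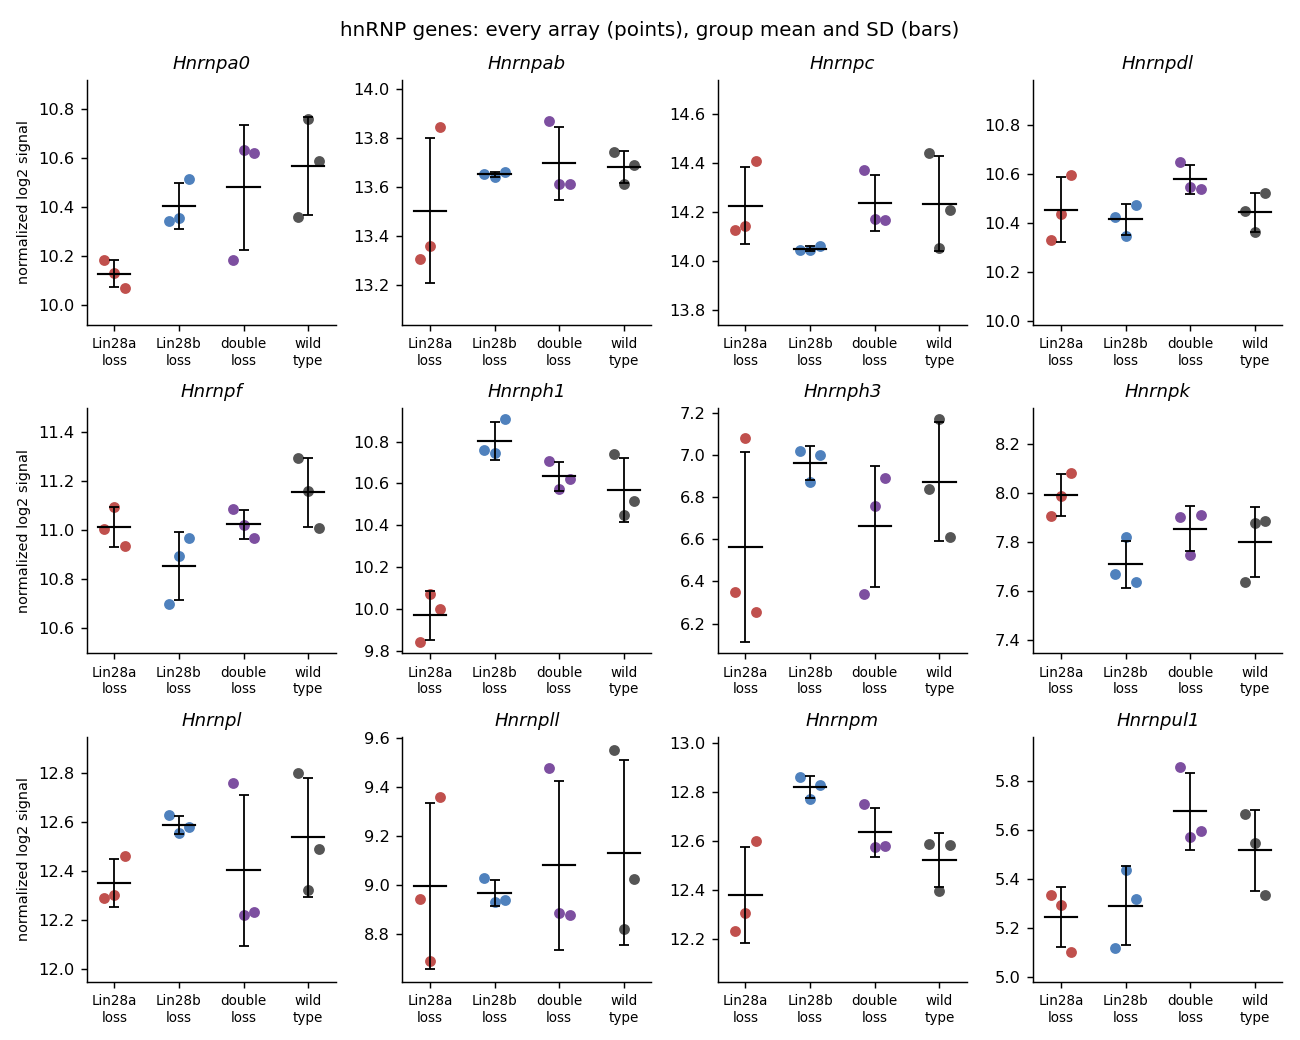
Normalized log2 signal (vertical axis) of the 12 tested hnRNP genes in Lin28a loss, Lin28b loss, double loss and wild type. Points are single arrays, long bars the mean and whiskers the SD of 3 arrays, and each panel has its own scale. Hnrnph1 is lower in Lin28a loss (9.84 to 10.07) than in the other groups (10.45 to 10.91), and the arrays of double loss and of wild type spread more widely in Hnrnpl and Hnrnpll than the group means do.

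For several genes a further entry of the table reads the same gene, and the entries were compared in a fit that kept all entries (10372). The 2 entries of Hnrnph1 changed alike in Lin28a loss, by -0.60 ± 0.10 and -0.68 ± 0.15, and both passed. The entries of Hnrnpab disagreed. The brighter one changed by -0.18 ± 0.13 in Lin28a loss and 0.02 ± 0.13 in double loss, each against wild type, and did not pass. The dimmer one had 6.59, 6.89 and 7.21 in Lin28a loss, 7.59, 7.45 and 7.57 in Lin28b loss, 8.26, 8.25 and 8.09 in double loss, against 7.36, 7.75 and 7.59 in wild type. It was lowest in Lin28a loss and highest in double loss, with no overlap of either with wild type. Its changes against wild type were -0.67 ± 0.14 in Lin28a loss (adjusted p = 0.00309) and 0.63 ± 0.14 in double loss (adjusted p = 0.00419), and its interaction was 1.33 ± 0.21 (adjusted p = 0.000288).

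The entries of Hnrnpc disagreed in Lin28a loss as well, with -0.51 ± 0.11 for the dimmer one (adjusted p = 0.00248) and -0.01 ± 0.11 for the brighter one. Which transcripts each entry reads is not given in the sources used here. Srsf7, an SR protein related to Srsf3, was read by the Sfrs7 entry and by a brighter entry outside the name rule. In the Sfrs7 entry the signals were 11.15, 11.05 and 11.60 in Lin28a loss, 11.10, 11.06 and 11.07 in Lin28b loss, 12.19, 11.76 and 11.69 in double loss, against 11.56, 11.33 and 11.41 in wild type. Double loss was above every other group there, with a change of 0.45 ± 0.15 against wild type (adjusted p = 0.0356) and of 0.81 ± 0.15 against Lin28b loss (adjusted p = 0.00128). The brighter entry gave 0.45 ± 0.08 in double loss (adjusted p = 0.00101) and -0.41 ± 0.08 in Lin28a loss (adjusted p = 0.00199), where the Sfrs7 entry had -0.16 ± 0.15. Both entries had an interaction above 0, of 0.97 ± 0.22 for Sfrs7 (adjusted p = 0.00358) and 0.70 ± 0.12 for the brighter one (adjusted p = 0.000476). With all 27 detected member entries, 10 were called in Lin28a loss against wild type (36.8% of all entries), 4 in Lin28b loss (36.1%) and 4 in double loss (37%). In double loss against Lin28b loss 7 were called (36.5%), and in the interaction 12 (37.8%).

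**Figure D5:**
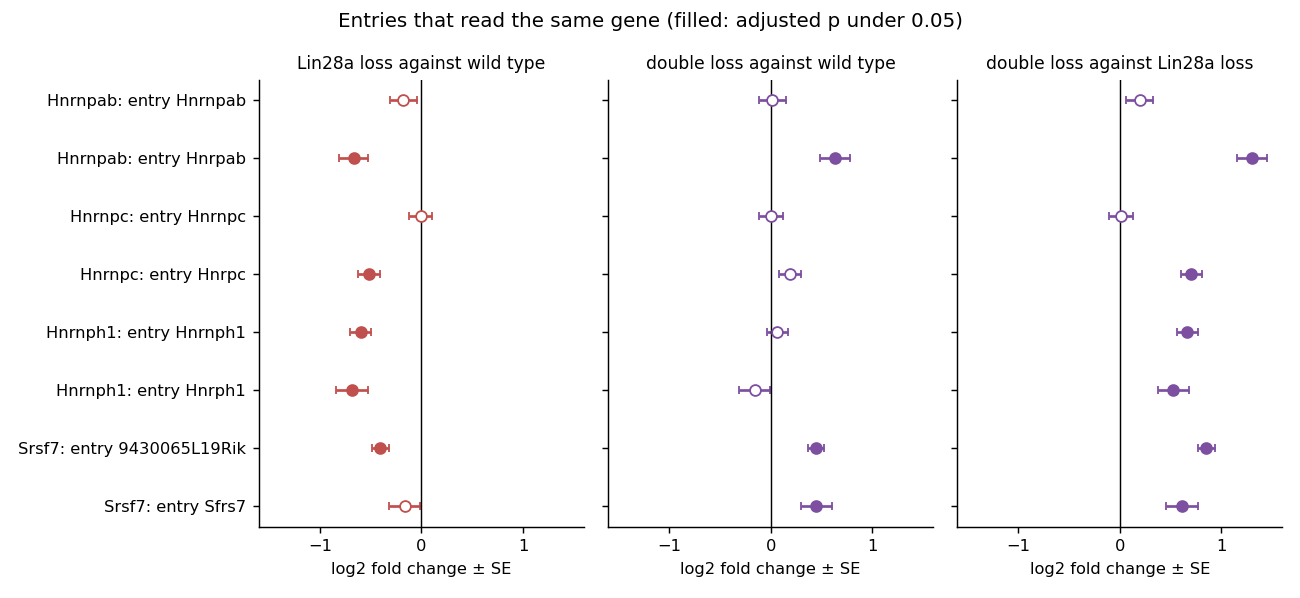
Log2 fold change ± SE (horizontal axis) of pairs of entries that read the same gene, in Lin28a loss against wild type, double loss against wild type and double loss against Lin28a loss, from the fit that kept all entries. Filled points passed an adjusted p under 0.05. In Lin28a loss against wild type the entries of Hnrnph1 lie close together, while those of Hnrnpab and Hnrnpc are apart.

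Of the 17 entries without detection 12 combine several probes. They included further entries of Hnrnpf, Hnrnpk and Hnrnpul1, each tested through another entry, and every entry of 13 genes. These genes were Hnrnpa1, Hnrnpa2b1, Hnrnpa3, Hnrnpd, Hnrnph2, Hnrnpr, Hnrnpu, Tra2b, Clasrp, Scaf4, Sfswap, Srek1 and Srek1ip1. Some of them were bright. The median raw signal of Hnrnpa1 was 1569 with detection on 8 of 12 arrays, that of Tra2b 1027 with detection on none, and that of the brighter Hnrnpa2b1 entry 650.4 with detection on 1, where the median over all detected entries was 257.2. In a fit with no filter, over 28852 genes, the calls against wild type took in 14.5% for Lin28a loss, 13.7% for Lin28b loss and 14.9% for double loss. Double loss against Lin28a loss had 23% called. Hnrnpa1 was at -0.01 ± 0.08 in Lin28a loss. Tra2b, an SR-related splicing activator, fell by 0.43 ± 0.09 in Lin28a loss (adjusted p = 0.00692) and was higher by 0.59 ± 0.09 in double loss than in Lin28a loss (adjusted p = 0.000516). Hnrnpa2b1 fell by 0.54 ± 0.10 in Lin28a loss (adjusted p = 0.00381) and Scaf4 by 0.49 ± 0.13 (adjusted p = 0.0338). Clasrp, which binds the SR protein kinase Clk4, rose by 0.90 ± 0.09 both in Lin28a loss (adjusted p = 7.76e-05) and in double loss (adjusted p = 7.31e-05). The undetected entry of Hnrnpk was at -0.47 ± 0.14 in Lin28a loss (adjusted p = 0.0552), where the tested entry had 0.19 ± 0.10, and the undetected entry fell by 0.43 ± 0.10 in the average over both chips (adjusted p = 0.0263). Hnrnpd fell by 0.85 ± 0.23 in Lin28b loss (adjusted p = 0.0313). It was dim, with a median raw signal of 91.5, and passed detection on no array of Lin28b loss or of wild type.

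Other genes of the pathway were read from lists of names. Of 67 spliceosomal snRNP and core factors 52 were tested. In Lin28a loss against wild type 14 of them fell and 4 rose, where 18.4% of all genes were called lower and 18.3% higher, with a median of -0.13. The largest falls were those of Crnkl1, a factor of the catalytic spliceosome, at -1.28 ± 0.20 (adjusted p = 0.00028), and of Prpf38a, which joins the complex before activation, at -0.80 ± 0.10 (adjusted p = 4.65e-05). In Lin28b loss 11 fell and 2 rose (17.2% and 18.9% of all genes), with a median of -0.10, and Plrg1 had the largest fall (-0.67 ± 0.14). In double loss 1 fell and 3 rose (19.1% and 18% of all genes), with a median of 0.02, and Crnkl1 was at 0.65 ± 0.20 (adjusted p = 0.0204). That call of Crnkl1 ended under median scaling, with no filter, and without replicate 1 of double loss or replicate 2 of wild type. The interaction passed for 17 upward and 3 downward (17.5% and 20.3% of all genes), with a median of 0.23, and was 2.38 ± 0.28 for Crnkl1 (adjusted p = 3.46e-05). Crnkl1 was above background on 1 of the 3 arrays of Lin28a loss. Under median scaling 2 fell and none rose in Lin28a loss, 5 passed upward in the interaction, and the median in double loss turned to -0.11.

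Of 18 SR protein kinases and cofactors 11 were tested. In Lin28b loss 7 rose and 1 fell (18.9% and 17.2% of all genes), with a median of 0.30, among them Srrm1, a coactivator with serine and arginine repeats (0.78 ± 0.11, adjusted p = 0.000158), and Srpk1, a kinase of SR proteins (0.44 ± 0.09). Tnpo3, the importin that carries SR proteins into the nucleus, fell by 0.32 ± 0.08. None of these 8 calls remained under median scaling, where the median turned to -0.02. In Lin28a loss Srpk1 (0.37 ± 0.09) and Rnps1 (0.23 ± 0.07) rose and Clk2 (-0.27 ± 0.09) fell. All 3 calls ended under median scaling, that of Clk2 ended under 13 of 23 settings, cyclic loess and the replicate block among them, and that of Rnps1 ended in a fit of only the arrays compared, and without replicate 1 or 2 of Lin28a loss or replicate 2 or 3 of wild type. In double loss 4 rose and 1 fell (18% and 19.1% of all genes), with Tra2a, a splicing activator related to Tra2b, at 0.67 ± 0.09 (adjusted p = 0.000127), which also passed under median scaling.

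Among the splicing genes linked to LIN28 in human cells, Tia1, Tardbp and Hnrnpf did not share 1 direction. These are RNA levels in mouse lines, and protein levels were not measured. Tia1, which binds U-rich introns, had 6.35, 6.37 and 6.45 in Lin28a loss, 7.15, 7.15 and 7.33 in Lin28b loss, 6.33, 6.11 and 6.18 in double loss, against 6.79, 6.83 and 7.004 in wild type. Its arrays fell into low values in both lines with Lin28a loss and high values in Lin28b loss, and the change on chip 2 was -1.003 ± 0.10 (adjusted p = 6.1e-06). Against wild type Tia1 changed by -0.49 ± 0.10 in Lin28a loss, by 0.34 ± 0.10 in Lin28b loss and by -0.67 ± 0.10 in double loss, and all 3 passed. The fall in double loss also passed under median scaling, while the calls in the single losses ended, and that in Lin28b loss ended too without replicate 2 of wild type or replicate 3 of Lin28b loss. Tardbp was not called in any of the 3 comparisons with wild type, and Hnrnpf fell in Lin28b loss alone of the 3, with changes of -0.14 ± 0.10 in Lin28a loss and -0.13 ± 0.10 in double loss.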

How the data were processed

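Total RNA of 12 stem cell samples was measured on Illumina arrays. The deposited gene-level table holds, per the file headers, each entry's signal intensity and detection p-value per sample, summarised over its probes and not normalized. GenomeStudio is named in the submitters' processing notes. Another 72 per-sample columns were not used: bead statistics, numbered columns that no label ties to a sample, and probe values without gene names.

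From the 30854 entries, background parameters were inferred from the detection p-values of the 21873 entries with 1 probe, followed by normexp correction, an offset of 16, log2 and quantile normalization (R 4.3.3, limma 3.58.1). The offset shrinks the differences of dim genes. Symbols were updated through the RefSeq table by Entrez ID (18045 entries), symbol (2073) or synonym (2663), and 8073 kept the file's name. Entries with detection p under 0.01 on all 3 arrays of 1 group passed (10372), and the brightest per gene was tested (9920). limma's lmFit and eBayes were fitted on all 12 arrays, with Benjamini-Hochberg adjustment over all genes and calls at an adjusted p under 0.05. The fitting was tested on simulated data. Promoters are 250 bases before the start nearest to the gene's 5′ end.

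The members and gene lists were chosen with earlier results of these data known. One gene of these lists is not reported here. Named were called members, by size of change, and the brightest and dimmest members. Of each list some genes were named, not always those with the largest changes. Replicate numbers were not taken to pair samples in the main fit. Alternatives covered background, scaling, offset, filter, entries, array weights, the replicate block and left-out arrays. The number of arrays limits the precision.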

Additional observations from a re-analysis of the deposited data

Results flagged for a closer look

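For the following members the change that goes with Lin28a loss differed with and without Lin28b loss, by the interaction term of limma's fit over 9920 genes. Each genotype has 1 line, so differences between lines and an interaction of the losses cannot be told apart. The differences are log2 values, double loss less Lin28b loss, minus Lin28a loss less wild type. They were 2.06 for Srsf3, 0.87 for Srsf5, 0.80 for Srsf6, 0.80 for Srsf2, 0.66 for Hnrnpul1, 0.52 for Hnrnpa0 and 0.43 for Hnrnph1. They were -0.42 for Srsf9 and -1.32 for Sugp2. Adjusted p-values ran from 1.98e-05 for Sugp2 to 0.0445 for Hnrnpa0, and 37.8% of all genes passed the same test. Single outlying samples were not tested for in groups of 3 arrays.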

How the results depend on the processing

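Of the 37 changes called among the members, 11 remained called under every setting run (up to 23), 14 ended only under median scaling, and 1 turned: Hnrnpm in Lin28b loss against wild type, where median scaling gave a change of -0.0129. Members called in the order Lin28a loss, Lin28b loss and double loss against wild type, double loss against Lin28b loss, double loss against Lin28a loss, averaged Lin28a loss and interaction were 7, 4, 2, 5, 9, 1 and 9. Median scaling gave 1, 1, 0, 1, 5, 0 and 5 calls, beside 14.1, 18.2, 17.4, 12.2, 32.4, 7.94 and 14.8% of all genes. Array weights gave 11, 9, 8, 11, 13, 7 and 11, beside 52.5, 57.3, 58.1, 57.9, 65.3, 50.5 and 56.6%. Leaving out the brightest arrays gave 10, 7, 3, 8, 11, 3 and 11, beside 49.7, 48.3, 43.3, 49.1, 63.1, 20.1 and 52.0%. Keeping all entries gave, of 27 member entries, 4 calls in double loss against wild type and 2 in averaged Lin28a loss. In averaged Lin28a loss 21.8% of all entries were called there. With no filter 4 of 33 members were called in averaged Lin28a loss, beside 7.61% of all genes. Leaving out 1 array gave 5 to 10, 2 to 4, 1 to 2, 3 to 5, 7 to 12, 1 to 2 and 7 to 11 calls. Shares of all genes are not given for the fits without 1 array, for the replicate block or for calls kept under every setting. Those member counts, here and above, can thus not be set against all genes. The causes were not tested. The replicate block left the counts at 7, 4, 2, 5, 9, 1 and 9 and ended none of the 37 calls. Correlations of deviations between same-numbered arrays ran from -0.573 to 0.687 (median 0.110), and 9 of 18 exceeded 0.1. Between arrays of different numbers they ran from -0.685 to 0.687 (median -0.031), and 12 of 36 exceeded 0.1. Whether the numbers pair samples cannot be told from these values. Over all genes, array weights called 5680 in place of 3586 genes in Lin28b loss, 5759 in place of 3676 in double loss, 5745 in place of 3632 in double loss against Lin28b loss, and 5005 in place of 2188 in averaged Lin28a loss. Median scaling called 982 genes higher and 418 lower in Lin28a loss, against 1817 and 1828, and 550 higher and 238 lower in averaged Lin28a loss, against 1051 and 1137. It called 1212 genes in double loss against Lin28b loss and 1466 in the interaction, in place of 3632 and 3750. With 1 line per genotype and 3 arrays per group, calls describe these lines.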

Other observations

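Of 40 other splicing regulators 29 were tested. In Lin28a loss against wild type 7 fell and 1 rose, where 18.4% of all genes were called lower and 18.3% higher, with a median change of -0.13. Rbm25, which works with the U1 snRNP, fell by 1.37 ± 0.17 (limma, adjusted p = 4.74e-05) and Rbm10 by 0.94 ± 0.13 (adjusted p = 0.000115). Esrp1, an epithelial splicing regulator, rose by 0.73 ± 0.15 (adjusted p = 0.00176), a call that ended under median scaling. In Lin28b loss 5 rose and 4 fell (18.9% and 17.2% of all genes), with Esrp1 at 1.41 ± 0.15 (adjusted p = 1.16e-05). In double loss 4 rose and 5 fell (18% and 19.1% of all genes), with Rbm4 at 0.77 ± 0.11 (adjusted p = 0.000141).

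Cirbp, a cold-inducible RNA-binding protein, fell by 0.62 ± 0.16 in Lin28a loss, by 1.05 ± 0.16 in Lin28b loss and by 1.11 ± 0.16 in double loss, all against the same wild-type arrays. Khdrbs1, known as Sam68, fell by 0.60 ± 0.09, 0.91 ± 0.09 and 1.08 ± 0.09 in the same order, and the call in Lin28a loss ended under median scaling. The interaction passed for 8 regulators upward and 4 downward (17.5% and 20.3% of all genes), with Rbm25 at 1.49 ± 0.24 (adjusted p = 0.000376) and Esrp1 at -2.40 ± 0.21 (adjusted p = 2.89e-06). Of 10 nonsense-mediated decay factors 6 were tested. Lin28a loss against wild type gave 1 rise and no fall (18.3% and 18.4% of all genes). There 4 of the 6 lay below 0, with a median of -0.06. Lin28b loss gave 2 rises and no fall (18.9% and 17.2% of all genes), with a median of 0.17. Double loss gave 2 rises and no fall (18% and 19.1% of all genes), with a median of 0.18. Their interaction passed for 2 upward and 1 downward, with a median of -0.19. Upf1, the helicase of nonsense-mediated decay, rose by 0.33 ± 0.08 in Lin28a loss, by 0.36 ± 0.08 in Lin28b loss and by 0.30 ± 0.08 in double loss. None of these 3 calls remained under median scaling.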
